A study of Homo sapiens with 12 samples.

Results

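The amino acid transporter genes described here are 40 of the 23613 gene symbols analysed. They are all symbols of the families SLC1A, SLC3A, SLC7A, SLC36A, SLC38A and SLC43A that carry a member number, taken without regard to their level. Of the 40, 30 reached at least 1 FPKM (fragments per kilobase of transcript, a level scaled to gene length and to library size) in at least 3 libraries and were tested.

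These genes encode membrane proteins that bring amino acids into the cell, exchange them across the plasma membrane or move them in and out of lysosomes. SLC3A2 is a heavy chain that carries several SLC7A light chains to the cell surface, and the light chain sets which amino acids are exchanged. Leucine, arginine and glutamine that enter through such carriers are sensed at the lysosome by the kinase complex mTORC1, and pluripotent stem cells draw heavily on outside glutamine and other amino acids.

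Poly(A) RNA was sequenced from the human embryonic stem cell lines H9 and RUES-2, with 3 libraries in each of 4 groups (naive H9, primed H9, naive RUES-2 and primed RUES-2). The 3 libraries of each group are described as biological replicates. Nothing says how the cultures were kept apart, and the p-values describe the spread between libraries, which may be technical. Naive cells were kept in equal parts of glucose-free DMEM/F12 and Neurobasal with 5 mM glucose, 1 mM glutamine, 1% nonessential amino acids, 0.1 mM β-mercaptoethanol, 5 mg/mL BSA, 20 ng/mL LIF, 18 µg/mL insulin, PD0325901 at 1 µM (it blocks MEK) and CHIR99021 at 3 µM (it blocks GSK3), at passages 27 to 31 (H9) and 24 to 26 (RUES-2). Primed cells were kept on mitomycin C-treated mouse feeder cells in DMEM/F12 with 20% serum replacement, 2 mM glutamine, 1% nonessential amino acids, 0.1 mM β-mercaptoethanol and 4 ng/mL bFGF, at passages 31 to 35 (H9) and 30 to 33 (RUES-2). The study concerns a transient inhibition of mTOR, but an mTOR inhibitor is not among the agents that the labels list. The media thus differ between states in their amino acid sources, and state and medium cannot be told apart.

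Libraries of the whole series differed moderately in depth. A gene of 1 to 2 FPKM rested on a median of 48.4 to 113 fragments, as the deposited confidence bounds imply, and 12681 to 13592 genes reached 1 FPKM. Judged by genes that are stable within a line, 3 of the 12 libraries went against their line label, and 0 of these 3 carried the H9 label. Results that rest on them are given by label ("labelled naive RUES-2"). If these libraries are of another line, the comparison of states with the RUES-2 label also compares lines. State and line cannot be told apart in it. The H9 comparison uses no such library except through the shared spread, and values from the H9 libraries alone are given where they change a call. All 12 pluripotent stem cell markers examined were expressed in all 4 groups, with a summed level of 1545 to 1590.5 FPKM in naive H9 against 2573 to 3169 FPKM in primed H9, and 1409 to 1655 FPKM in libraries labelled naive RUES-2 against 2737 to 3177 FPKM in primed RUES-2. Of 12 tested naive markers 8 were higher in naive H9 and 5 in libraries labelled naive RUES-2, while KLF17 and ESRRB never reached 1 FPKM. Of 9 mesendoderm markers 7 were higher in naive cells of each label and 1 was lower in naive H9, with sums of 240.1 to 307 FPKM in naive H9 against 21.7 to 60.6 FPKM in primed H9, and 181 to 278 FPKM in libraries labelled naive RUES-2 against 17.4 to 46.4 FPKM in primed RUES-2. Of 11 tested fibroblast markers 8 were higher and 1 lower in naive H9, and 6 were higher and 2 lower with the naive RUES-2 label; the untested one, FAP, was listed at 0 in all primed libraries. The list summed to 441 to 628 FPKM in naive H9 against 197 to 263 FPKM in primed H9, and to 264 to 1174 FPKM in libraries labelled naive RUES-2 against 148 to 253 FPKM in primed RUES-2. Beside these marker counts, 20.4% of all genes tested were higher and 23.9% lower in naive H9, and 23.1% and 23.6% with the naive RUES-2 label. The part of these other cell types in the transporter values was not tested, and in bulk RNA fewer cells of a type and less RNA per cell cannot be told apart.

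Amino acid transporter RNA made up 0.0775% to 0.108% of the FPKM sum of a library. The 40 genes summed to 667.6 to 973.6 FPKM, and 24 to 29 of them reached 1 FPKM in a library. A total of 21 did so in all 12 libraries. SLC3A2, SLC7A5, SLC1A5, SLC38A2 and SLC38A1 were at high level throughout (each at least 35.0 FPKM in every library). These 5 held 77.4% to 78.9% of the summed FPKM in naive H9 libraries, against 65.2% to 71.3% in primed H9 libraries. With the RUES-2 label they held 77.0% to 79.3% in naive libraries, against 64.7% to 67.9% in primed libraries. With either label the naive libraries thus had a larger share of their transporter RNA in these 5 genes. Of the 5, SLC3A2 and SLC7A5 were higher and SLC1A5, SLC38A2 and SLC38A1 lower in naive cells of both labels.

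**Figure D1:**
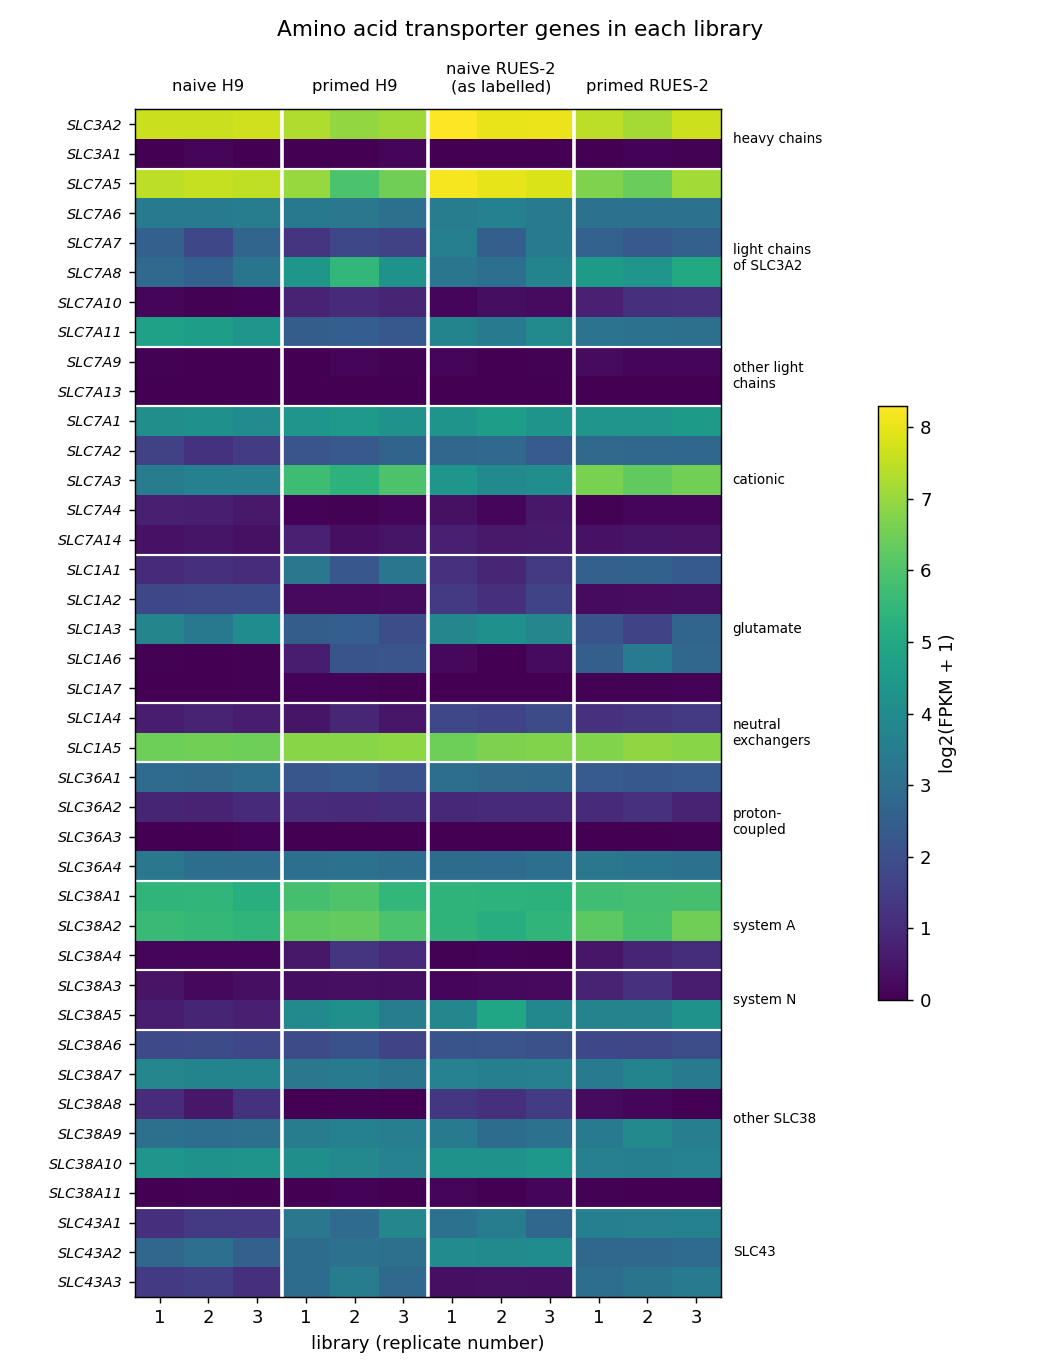
Level of all 40 amino acid transporter genes in each of the 12 libraries, as log2(FPKM + 1), with columns grouped by state and line label and rows by role. The heavy chain SLC3A2 and the light chain SLC7A5 are brightest in naive columns, while SLC7A3, SLC7A8, SLC1A1 and SLC1A6 are brighter in primed columns.

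Between states, 23 of the 30 tested transporters differed in H9, with 9 higher and 14 lower in naive cells. Among all 14428 genes tested 44.3% were called (20.4% higher and 23.9% lower). In libraries labelled RUES-2, 21 of 30 differed, with 11 higher and 10 lower in naive cells, beside 46.8% of all genes (23.1% higher and 23.6% lower). A gene was called at an adjusted p under 0.05 from limma on log2(FPKM + 1), and changes below are differences of mean log2(FPKM + 1), naive minus primed, ± SE. On that scale the change of a gene of low level is understated. The median size of the change, in either direction, was 0.74 for the transporters tested and 0.31 for all genes in H9, and 0.63 and 0.33 with the RUES-2 label. The median signed change of the transporters was -0.21 in H9 and 0.05 with the RUES-2 label, beside -0.01 and 0.01 for all genes. Passing the filter can itself require a high level in 1 state, so these counts describe the members that passed and not all 40.

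The same 18 transporters were called with both line labels, each in the same direction, which is 60% of the 30 beside 29.7% of all genes tested. SLC1A2, SLC1A3, SLC3A2, SLC7A5, SLC7A11, SLC36A1, SLC38A8 and SLC38A10 were higher in naive cells of both labels. SLC1A1, SLC1A5, SLC1A6, SLC7A3, SLC7A8, SLC38A1, SLC38A2, SLC38A4, SLC38A9 and SLC43A3 were lower in naive cells of both labels. Among these genes, SLC1A2 and SLC38A8 reached 1 FPKM in naive libraries alone, and SLC1A6 and SLC38A4 in primed libraries alone. Their directions were thus set by the filter. A further 5 were called in H9 alone and 3 with the RUES-2 label alone, and SLC7A7, SLC36A2, SLC36A4 and SLC38A6 were called in neither. With the H9 libraries alone 21 of the 30 were called in H9. Across these 30 genes the changes with the 2 labels had a Pearson correlation of 0.72, beside 0.67 across all genes tested. Genes are not independent replicates, and all changes share the library scaling. The changes with the RUES-2 label may also hold a difference between lines, so they may not compare states alone.

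**Figure D2:**
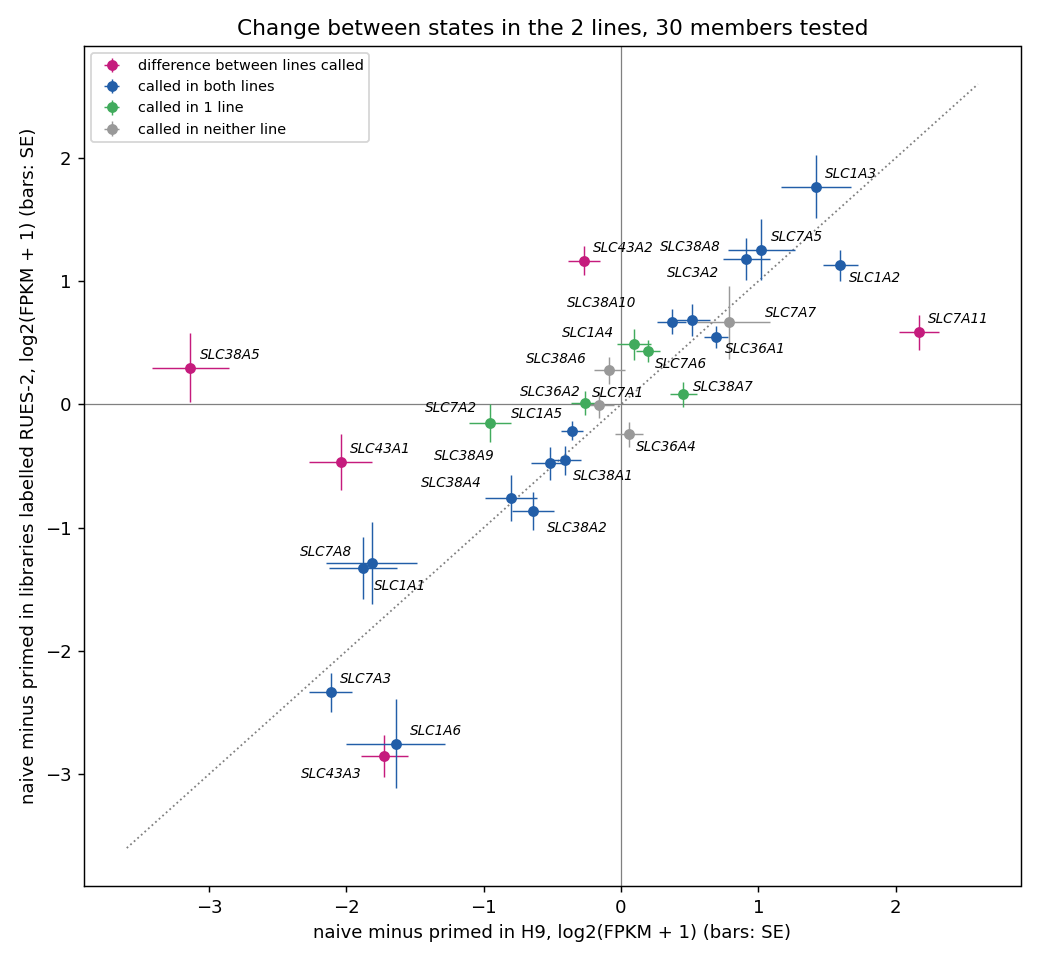
Change between states of the 30 tested transporters, as the difference of mean log2(FPKM + 1) in libraries labelled RUES-2 (vertical) against H9 (horizontal), with bars of 1 SE from limma and a dotted line of equal change. Most genes lie near the dotted line, and SLC38A5, SLC43A1, SLC43A2, SLC7A11 and SLC43A3, in pink, are those whose change differed between the labels.

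The heavy chain SLC3A2 and its main light chain SLC7A5 rose together in naive cells of both labels. SLC7A5 exchanges large neutral amino acids such as leucine for intracellular glutamine and is carried by SLC3A2. SLC3A2 lies at chr11:62623484-62656355 and SLC7A5 at chr16:87863629-87903100 on hg19. SLC3A2 had 199, 196 and 205 FPKM in naive H9 libraries, against 159, 122 and 139 FPKM in primed H9 libraries. It stood at 314, 261 and 264 FPKM in libraries labelled naive RUES-2, against 177, 145 and 201 FPKM in primed RUES-2 libraries. The change was 0.52 ± 0.13 in H9 (adjusted p = 0.00916) and 0.68 ± 0.13 with the RUES-2 label (adjusted p = 0.00185). Every naive library lay above every primed library of its label, and primed RUES-2 replicate 3 also lay above 2 of the naive H9 libraries.

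SLC7A5 had 178, 189 and 180.4 FPKM in naive H9 libraries, against 129.8, 61.2 and 89.3 FPKM in primed H9 libraries. With the RUES-2 label SLC7A5 had 288, 254 and 227 FPKM in naive libraries, against 102, 83.8 and 139.8 FPKM in primed libraries. Its change was 1.02 ± 0.25 in H9 (adjusted p = 0.00726) and 1.26 ± 0.25 with the RUES-2 label (adjusted p = 0.00211). All 6 naive libraries lay above all 6 primed ones. The near-identical copies SLC7A5P1 and SLC7A5P2 moved in the same direction, by 0.73 and 0.62 in H9 and by 0.82 and 0.81 with the RUES-2 label, so the split of fragments between SLC7A5 and its copies is uncertain. SLC7A5 had 10.6 to 10.8 times the summed FPKM of both copies in naive H9 libraries and 7.68 to 10.6 times in primed H9 libraries.

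The promoters of this pair are shown because both genes moved together. The windows run from 250 bases before to 50 after a transcription start in RefSeq (GRCh38.p14), and 31 of the 40 members had at least 1 window. In SLC3A2 (chr11:62881449-62881748, plus strand) the capitals mark an amino acid response element, searched as TGATGNAA on both strands, the motif bound by ATF4. In SLC7A5 (chr16:87869458-87869757, minus strand) they mark an E-box, searched as CACGTG on both strands, the motif bound by MYC and by the lysosomal regulator TFEB.
SLC3A2: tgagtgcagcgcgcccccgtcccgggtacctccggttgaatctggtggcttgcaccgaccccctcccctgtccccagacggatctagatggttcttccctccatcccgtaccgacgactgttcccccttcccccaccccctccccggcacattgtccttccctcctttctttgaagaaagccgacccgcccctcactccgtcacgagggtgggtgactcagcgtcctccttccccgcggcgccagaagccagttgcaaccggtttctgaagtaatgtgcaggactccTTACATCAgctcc
SLC7A5: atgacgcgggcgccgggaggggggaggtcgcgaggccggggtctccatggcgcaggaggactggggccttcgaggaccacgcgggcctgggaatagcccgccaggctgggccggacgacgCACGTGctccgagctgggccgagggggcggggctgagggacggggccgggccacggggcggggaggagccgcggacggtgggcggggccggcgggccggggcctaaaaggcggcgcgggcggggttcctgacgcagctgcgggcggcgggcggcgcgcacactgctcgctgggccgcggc
The amino acid response element stood in 6 of the 53 windows of members and in 3.62% of the 35116 windows of all genes, and the E-box in 9 of the 53 and in 7.26% of all. An antioxidant response element (searched as TGACNNNGC on both strands) stood in 7 of the 53 and in 13.3% of all, among them both windows shown, and a TCF core (CTTTGA, both strands) in 4 of the 53 and in 12.9% of all, among them that of SLC3A2. A match says that the letters are there and nothing about binding in these cells.

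Per heavy chain, naive cells had more light chain RNA of SLC7A5. The FPKM ratio of SLC7A5 to SLC3A2 was 0.882 to 0.965 in naive H9 libraries, against 0.503 to 0.817 in primed H9 libraries. It was 0.858 to 0.976 in libraries labelled naive RUES-2, against 0.577 to 0.694 in primed RUES-2 libraries. The ranges did not overlap with either label. SLC7A5 made up 79.3% to 82.3% of the summed FPKM of the 6 light chains in naive H9, against 50.3% to 78.4% in primed H9, where replicate 2 was lowest.

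**Figure D3:**
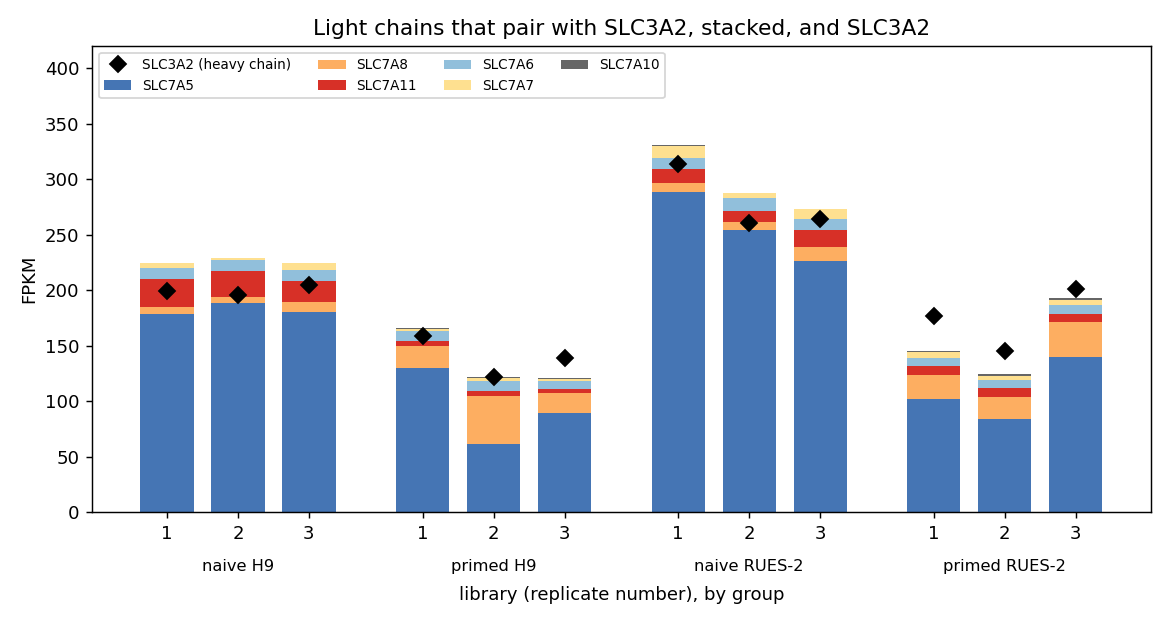
FPKM of the 6 light chains that pair with SLC3A2, stacked by library, with SLC3A2 as black diamonds, for the 12 libraries by state and line label. The stack exceeds the diamond in every naive library and in primed H9 replicate 1, and nearly meets it in primed H9 replicate 2. SLC7A5 takes most of the stack in every library, and SLC7A8 takes a visibly larger band in the primed libraries.

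SLC7A8, the other large neutral amino acid exchanger carried by SLC3A2, moved the opposite way to SLC7A5. It had 6.11, 4.97 and 8.44 FPKM in naive H9 libraries, against 20.0, 43.6 and 17.6 FPKM in primed H9 libraries. SLC7A8 had 8.66, 7.18 and 12.4 FPKM in libraries labelled naive RUES-2, against 21.8, 19.7 and 31.7 FPKM in primed RUES-2 libraries. It fell by 1.82 ± 0.33 in H9 (adjusted p = 0.00153) and by 1.29 ± 0.33 with the RUES-2 label (adjusted p = 0.00922). No naive library reached the lowest primed one, and primed H9 replicate 2 stood above the rest. Of the summed light chains SLC7A8 was 2.17% to 3.76% in naive H9, against 12.1% to 35.8% in primed H9, and 2.50% to 4.54% with the naive RUES-2 label, against 15.0% to 16.4% in primed RUES-2.

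SLC7A11, the cystine and glutamate exchanger that feeds glutathione synthesis, rose in both comparisons, and by more in H9. The gene lies at chr4:139085248-139163503 (hg19). It had 25.9, 23.4 and 19.4 FPKM in naive H9 libraries, against 4.43, 4.56 and 3.87 FPKM in primed H9 libraries. Libraries labelled naive RUES-2 had 12.3, 9.60 and 14.8 FPKM of SLC7A11, against 7.95, 7.81 and 7.34 FPKM in primed RUES-2 libraries. The change was 2.17 ± 0.14 in H9 (adjusted p = 2.7e-06) and 0.59 ± 0.14 with the RUES-2 label (adjusted p = 0.00729). States did not overlap with either label. The antisense gene SLC7A11-AS1 overlaps it, at a mean of 0.744 FPKM, and whether the libraries kept strand is not stated, so reads of the pair cannot be told apart.

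Of the other light chains, SLC7A6 was called with the RUES-2 label alone and SLC7A7 with neither. SLC7A6, which exports cationic amino acids against neutral ones and sodium, had 9.61, 9.76 and 10.3 FPKM in naive H9 libraries, against 9.26, 8.89 and 7.43 FPKM in primed H9 libraries. SLC7A6 had 10.3, 11.6 and 10.0 FPKM in libraries labelled naive RUES-2, against 7.48, 7.52 and 7.81 FPKM in primed RUES-2 libraries. It rose by 0.44 ± 0.09 with the RUES-2 label (adjusted p = 0.00234), and the change in H9 was 0.20 ± 0.09 (adjusted p = 0.091). The difference between the labels was itself not called (0.24 ± 0.12, adjusted p = 0.301). It overlaps SLC7A6OS (mean 13.9 FPKM), so part of its level is uncertain. SLC7A7, a related exchanger, averaged 4.28 ± 1.59 FPKM in naive H9 and 1.99 ± 0.532 in primed H9, and 8.33 ± 3.26 with the naive RUES-2 label and 4.63 ± 0.627 in primed RUES-2 (SD, n = 3 each), and missed the threshold in both. Its change was 0.79 ± 0.30 in H9 (adjusted p = 0.0536) and 0.67 ± 0.30 with the RUES-2 label (adjusted p = 0.0904). SLC7A10, an exchanger of small neutral amino acids, had at most 0.229 FPKM in any naive library and 0.715 to 1.25 FPKM in primed libraries. It did not pass the filter, and without a filter its change was -0.79 in H9 (adjusted p = 0.000221) and -0.78 with the RUES-2 label (adjusted p = 0.000208). SLC7A10 overlaps LRP3 (mean 8.89 FPKM). The kidney and gut pair SLC3A1 and SLC7A9 stayed under 0.2 FPKM in all libraries, and SLC7A13 was listed at 0 in all 12.

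Among transporters of cationic amino acids, SLC7A3 was much lower in naive cells while SLC7A1 changed little. Both carry arginine and lysine. SLC7A3 lies at chrX:70145430-70150975 (hg19). It had 10.3, 11.4 and 11.1 FPKM in naive H9 libraries, against 51.3, 40.5 and 62.5 FPKM in primed H9 libraries. SLC7A3 had 19.7, 14.4 and 15.9 FPKM in libraries labelled naive RUES-2, against 97.3, 75.9 and 90.6 FPKM in primed RUES-2 libraries. It fell by 2.12 ± 0.16 in H9 (adjusted p = 6.36e-06) and by 2.34 ± 0.16 with the RUES-2 label (adjusted p = 3.31e-06). The 2 falls did not differ by test (difference -0.22 ± 0.23, adjusted p = 0.629). All 6 primed libraries lay above all 6 naive ones, at 4.71 times the naive mean FPKM in H9 and 5.28 times with the RUES-2 label.

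SLC7A1 had 16.2, 16.9 and 15.1 FPKM in naive H9 libraries, against 19.6, 20.8 and 18.2 FPKM in primed H9 libraries. SLC7A1 had 18.8, 23.4 and 18.8 FPKM in libraries labelled naive RUES-2, against 19.1, 19.1 and 21.8 FPKM in primed RUES-2 libraries. Its fall of 0.26 ± 0.10 in H9 was at the threshold (adjusted p = 0.0496) and lost the call in 4 alternative settings, for example without a filter (adjusted p = 0.0573). It was also lost without any 1 of 9 libraries (naive H9 replicates 1, 2 and 3, primed H9 replicates 1 and 2, naive RUES-2 replicates 1 and 3, and primed RUES-2 replicates 1 and 2, adjusted p 0.0545 to 0.153). The groups overlapped with the RUES-2 label (0.02 ± 0.10, adjusted p = 0.913). SLC7A2, another carrier of arginine and lysine, had 2.05, 1.34 and 1.79 FPKM in naive H9 libraries, against 3.57, 3.97 and 5.38 FPKM in primed H9 libraries. SLC7A2 had 5.70, 6.10 and 4.28 FPKM in libraries labelled naive RUES-2, against 6.25, 5.78 and 5.95 FPKM in primed RUES-2 libraries. It fell by 0.96 ± 0.15 in H9 (adjusted p = 0.000734) and the groups overlapped with the RUES-2 label (-0.15 ± 0.15, adjusted p = 0.46). The difference between the labels was 0.81 ± 0.22 and was not called (adjusted p = 0.0581). It was called at a pseudocount of 0.1 (adjusted p = 0.045) and without naive RUES-2 replicate 3 (adjusted p = 0.0356).

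SLC7A3 thus made up 34.8% to 38.7% of the summed FPKM of the 5 genes of this group in naive H9 libraries, against 61.8% to 72.2% in primed H9 libraries. With the RUES-2 label the shares were 32.4% to 43.7% in naive libraries, against 74.9% to 79.1% in primed libraries. The most abundant cationic transporter was SLC7A3 in every primed library. SLC7A4, a relative without known transport activity, was low, at 0.118 to 0.641 FPKM in naive libraries and at most 0.0996 FPKM in primed libraries. SLC7A14, a lysosomal relative, ran from 0.273 to 0.712 FPKM. Neither passed the filter. Without a filter limma called SLC7A4 higher in naive H9 (0.57, adjusted p = 0.000512) and with the naive RUES-2 label (0.25, adjusted p = 0.0342).

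Of the glutamate transporters, SLC1A3 and SLC1A2 were higher and SLC1A1 and SLC1A6 lower in naive cells of both labels. All import glutamate and aspartate with sodium, and SLC1A1 also imports cysteine. SLC1A2 reached 1 FPKM in naive libraries alone and SLC1A6 in primed libraries alone. The filter thus let each of them in through the state where it was high, which fixed the direction of a call. SLC1A3 had 12.6, 9.34 and 15.6 FPKM in naive H9 libraries, against 4.51, 4.53 and 2.99 FPKM in primed H9 libraries. It stood at 13.3, 17.0 and 13.4 FPKM in libraries labelled naive RUES-2, against 3.39, 2.27 and 5.57 FPKM in primed RUES-2 libraries. SLC1A3 rose by 1.42 ± 0.26 in H9 (adjusted p = 0.0014) and by 1.77 ± 0.26 with the RUES-2 label (adjusted p = 0.00034), and no states overlapped.

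SLC1A2 averaged 2.55 ± 0.0955 FPKM in naive H9 and 0.173 ± 0.0127 FPKM in primed H9, and 1.69 ± 0.531 FPKM with the naive RUES-2 label and 0.214 ± 0.0178 FPKM in primed RUES-2 (SD, n = 3 each). It rose by 1.60 ± 0.13 in H9 (adjusted p = 8.41e-06) and by 1.13 ± 0.13 with the RUES-2 label (adjusted p = 7.17e-05). SLC1A2 and SLC1A3 are best known from astrocytes and radial glia. Of the 7 markers examined for those cells, which include both genes, GFAP, AQP4, S100B and ALDH1L1 did not reach 1 FPKM in any library, and the 2 tested were SLC1A2 and SLC1A3 themselves. HOPX, which did not pass the filter, had 0.622 to 1.32 FPKM in naive H9, against 0.0589 to 0.328 FPKM in primed H9, and 0.318 to 0.834 FPKM with the naive RUES-2 label, while it was listed at 0 in primed RUES-2. The 5 markers other than the transporters summed to 0.941 to 1.54 FPKM in naive H9, against 0.574 to 1.03 FPKM in primed H9, and 0.435 to 1.02 FPKM with the naive RUES-2 label, against 0.8001 to 1.19 FPKM in primed RUES-2. Of 12 neural progenitor and neuron markers 5 of the 6 tested rose with each label, with sums of 301 to 321 FPKM in naive H9 against 139.9 to 178 FPKM in primed H9, and 325 to 370.4 FPKM with the naive RUES-2 label against 102 to 178 FPKM in primed RUES-2. SOX1, NEUROG1 and HES5 of that list never reached 1 FPKM, and its part in the result was not tested.

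SLC1A1 had 1.01, 1.19 and 1.08 FPKM in naive H9 libraries, against 8.98, 3.74 and 8.64 FPKM in primed H9 libraries. SLC1A1 had 1.25, 0.874 and 1.67 FPKM in libraries labelled naive RUES-2, against 4.87, 5.01 and 4.06 FPKM in primed RUES-2 libraries. It fell by 1.88 ± 0.25 in H9 (adjusted p = 0.000227) and by 1.33 ± 0.25 with the RUES-2 label (adjusted p = 0.00168). Primed H9 replicate 2 was lower than the other primed H9 libraries, and without it the difference between the labels was called (0.90, adjusted p = 0.0302, against 0.55 and 0.421 with it).

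SLC1A6, known from Purkinje cells of the cerebellum, had 0.0319, 0 and 0.0357 FPKM in naive H9 libraries, against 0.598, 3.42 and 3.59 FPKM in primed H9 libraries. SLC1A6 had 0.124, 0 and 0.171 FPKM in libraries labelled naive RUES-2, against 4.76, 9.54 and 5.64 FPKM in primed RUES-2 libraries. It fell by 1.64 ± 0.36 in H9 (adjusted p = 0.00441) and by 2.75 ± 0.36 with the RUES-2 label (adjusted p = 0.000183). A naive library of each label was listed at 0, and no naive library reached the lowest primed one. The retinal transporter SLC1A7 stayed under 0.07 FPKM in all libraries. SLC1A3 made up 71.3% to 80.5% of the summed FPKM of the 5 glutamate transporters in naive H9, against 19.4% to 38% in primed H9, and 76.8% to 89.2% with the naive RUES-2 label, against 13.3% to 35.8% in primed RUES-2.

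**Figure D4:**
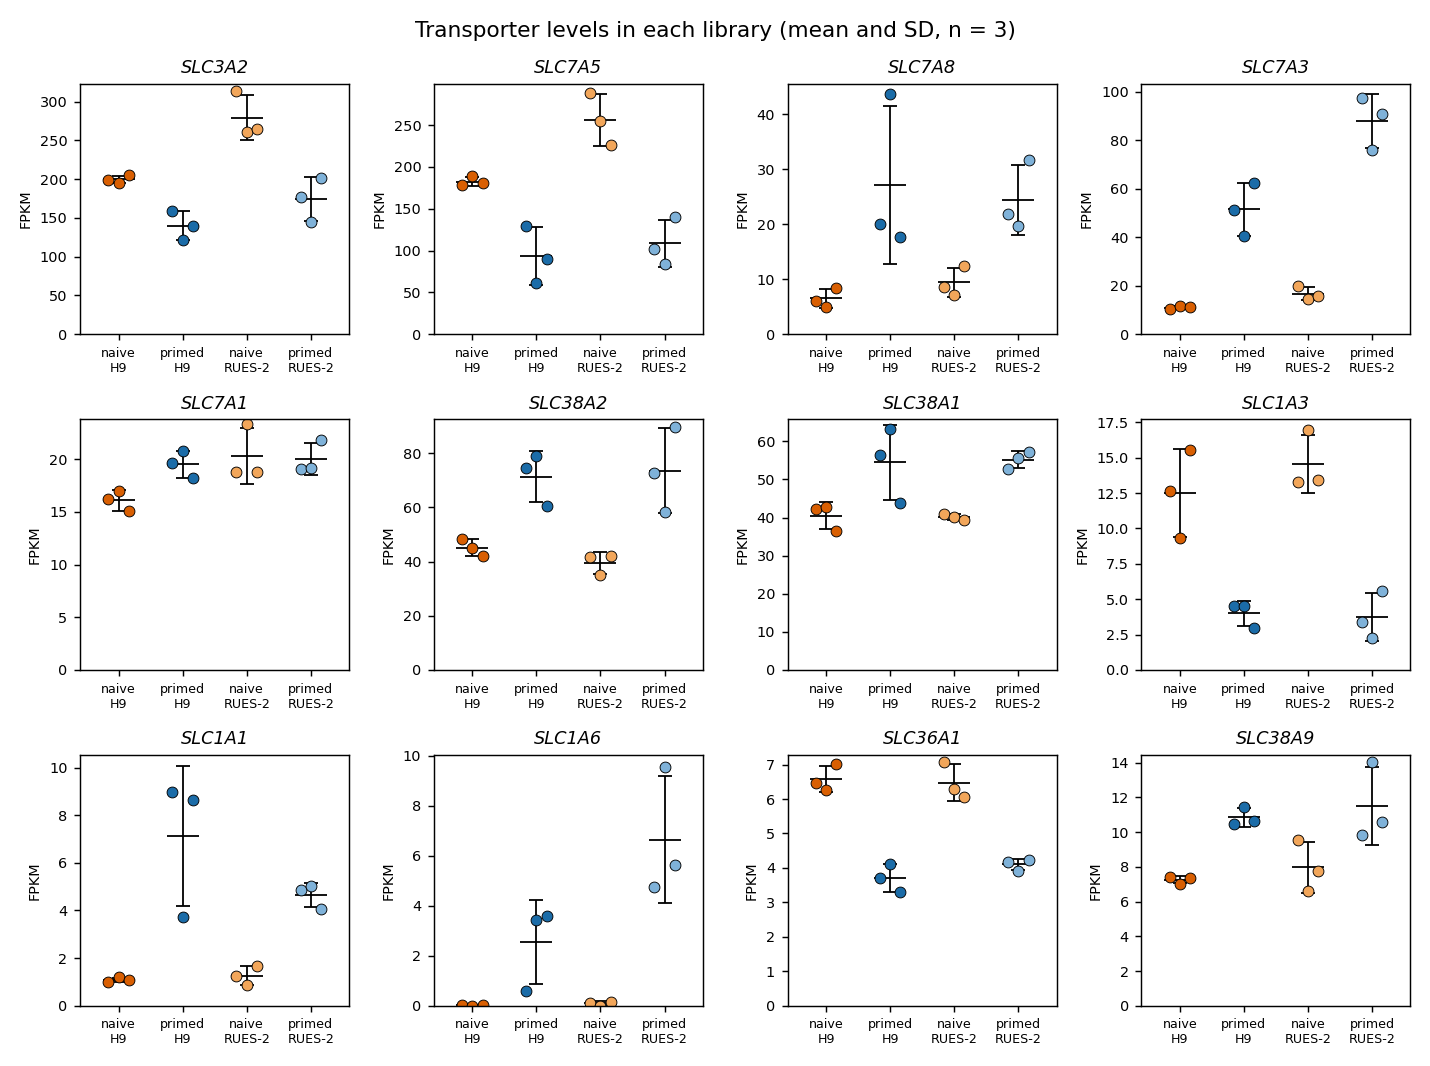
FPKM of 12 transporters in each library (points), with the mean and SD of 3 libraries, for naive and primed cells of each line label, each panel on its own axis from 0. SLC3A2, SLC7A5, SLC1A3 and SLC36A1 stand higher in naive than in primed libraries of both labels, SLC7A3, SLC7A8, SLC1A1, SLC1A6 and SLC38A2 lower, and SLC7A1 nearly level.

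The neutral amino acid exchanger SLC1A5, a main entry route for glutamine, was high in all libraries and slightly lower in naive cells. It had 86.7, 92.2 and 86.7 FPKM in naive H9 libraries, against 112, 112 and 118 FPKM in primed H9 libraries. SLC1A5 had 87.9, 99.1 and 106 FPKM in libraries labelled naive RUES-2, against 106, 120.0 and 113 FPKM in primed RUES-2 libraries. It fell by 0.36 ± 0.08 in H9 (adjusted p = 0.00406) and by 0.21 ± 0.08 with the RUES-2 label (adjusted p = 0.0428). The RUES-2 call was lost without any 1 of 8 libraries (naive H9 replicates 1, 2 and 3, primed H9 replicate 1, naive RUES-2 replicates 1 and 2, and primed RUES-2 replicates 2 and 3, adjusted p 0.0559 to 0.167) and with the 6 RUES-2 libraries alone (adjusted p = 0.106). SLC1A4, which exchanges serine, alanine and threonine, averaged 0.640 ± 0.0855 FPKM in naive H9 and 0.546 ± 0.250 FPKM in primed H9, and 2.44 ± 0.270 FPKM with the naive RUES-2 label and 1.46 ± 0.192 FPKM in primed RUES-2 (SD, n = 3 each). It rose with the RUES-2 label (0.49 ± 0.12, adjusted p = 0.00871) and overlapped in H9 (0.10 ± 0.12, adjusted p = 0.561), and the difference between the labels was not called (adjusted p = 0.232).

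Of system A, the sodium-coupled importers of glutamine, alanine and other small neutral amino acids, SLC38A1 and SLC38A2 were lower in naive cells of both labels. SLC38A4 was also called lower in both comparisons. It reached 1 FPKM in primed libraries alone, so it passed the filter only through the state where it was high, and it adds no separate support. SLC38A2, which cells are known to induce when amino acids are scarce, had 48.4, 45.0 and 42.0 FPKM in naive H9 libraries, against 74.7, 78.9 and 60.6 FPKM in primed H9 libraries. SLC38A2 had 41.6, 35.0 and 42.0 FPKM in libraries labelled naive RUES-2, against 72.8, 58.2 and 89.7 FPKM in primed RUES-2 libraries. It fell by 0.64 ± 0.15 in H9 (adjusted p = 0.00669) and by 0.86 ± 0.15 with the RUES-2 label (adjusted p = 0.00117). All 6 naive libraries lay below all 6 primed ones.

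SLC38A1 had 42.3, 42.8 and 36.4 FPKM in naive H9 libraries, against 56.4, 63.3 and 43.8 FPKM in primed H9 libraries. SLC38A1 had 40.8, 40.1 and 39.2 FPKM in libraries labelled naive RUES-2, against 52.8, 55.7 and 57.1 FPKM in primed RUES-2 libraries. Its fall was 0.41 ± 0.12 in H9 (adjusted p = 0.0173) and 0.45 ± 0.12 with the RUES-2 label (adjusted p = 0.0096). Naive H9 replicate 2 lay just below primed H9 replicate 3, the nearest pair. The H9 call was lost with the H9 libraries alone (adjusted p = 0.0717), without naive H9 replicate 3 (adjusted p = 0.07), without primed H9 replicate 1 (adjusted p = 0.0542) and without primed H9 replicate 2 (adjusted p = 0.051). SLC38A4 was low and averaged 0.0980 ± 0.0165 FPKM in naive H9 and 0.957 ± 0.490 FPKM in primed H9, and 0.0431 ± 0.0111 FPKM with the naive RUES-2 label and 0.789 ± 0.350 FPKM in primed RUES-2 (SD, n = 3 each). It fell by 0.80 ± 0.19 in H9 (adjusted p = 0.00627) and fell by 0.76 ± 0.19 with the RUES-2 label (adjusted p = 0.0076).

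The SLC38A1 promoter (chr12:46266467-46266766, minus strand, GRCh38.p14) is shown because it also holds a match to the pattern searched as the amino acid response element, in capitals. The matched letters are TGATGAAA here and TTACATCA, on the opposite strand, in SLC3A2. SLC38A1 was lower and SLC3A2 higher in naive cells, and a part of the motif in this was not tested.
SLC38A1: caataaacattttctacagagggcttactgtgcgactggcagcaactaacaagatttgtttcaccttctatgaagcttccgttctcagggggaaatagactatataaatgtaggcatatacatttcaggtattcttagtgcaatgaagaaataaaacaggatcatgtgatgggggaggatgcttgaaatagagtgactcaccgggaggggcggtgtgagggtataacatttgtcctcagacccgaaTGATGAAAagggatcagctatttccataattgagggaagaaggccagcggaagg
The other members with that element in a window were SLC1A3, SLC1A4, SLC1A5 and SLC7A1, so the 6 included genes that were higher, lower and called with 1 label.

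Of the lysosomal transporters, SLC36A1 rose and SLC38A9 fell in naive cells of both labels. SLC36A1 exports small neutral amino acids from the lysosome with protons, SLC38A7 exports glutamine and asparagine, and SLC38A9 carries and senses arginine for mTORC1. SLC36A1 had 6.45, 6.28 and 7.02 FPKM in naive H9 libraries, against 3.70, 4.10 and 3.29 FPKM in primed H9 libraries. It stood at 7.08, 6.30 and 6.05 FPKM in libraries labelled naive RUES-2, against 4.16, 3.91 and 4.23 FPKM in primed RUES-2 libraries. The rise was 0.69 ± 0.09 in H9 (adjusted p = 0.000174) and 0.55 ± 0.09 with the RUES-2 label (adjusted p = 0.000652), with all 6 naive libraries above all 6 primed ones.

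The SLC36A1 promoter (chr5:151447353-151447652, plus strand, GRCh38.p14) is shown for its 2 E-boxes, in capitals.
SLC36A1: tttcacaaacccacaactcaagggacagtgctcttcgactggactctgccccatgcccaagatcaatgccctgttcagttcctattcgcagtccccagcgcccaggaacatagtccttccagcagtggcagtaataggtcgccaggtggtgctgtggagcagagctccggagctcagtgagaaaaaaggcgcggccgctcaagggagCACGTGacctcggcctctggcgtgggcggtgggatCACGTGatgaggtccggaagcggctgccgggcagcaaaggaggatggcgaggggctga
The E-box also stood in windows of SLC1A5, SLC1A7, SLC7A5, SLC7A7, SLC7A8, SLC38A5, SLC38A7 and SLC43A1, among which some rose, some fell and some were not called.

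SLC38A7 had 13.4, 12.3 and 12.4 FPKM in naive H9 libraries, against 9.09, 9.79 and 8.20 FPKM in primed H9 libraries. SLC38A7 had 11.8, 10.9 and 11.2 FPKM in libraries labelled naive RUES-2, against 9.82, 12.4 and 9.71 FPKM in primed RUES-2 libraries. It rose by 0.45 ± 0.10 in H9 (adjusted p = 0.00415), the groups overlapped with the RUES-2 label (0.08 ± 0.10, adjusted p = 0.523), and the difference between the labels was not called (-0.37 ± 0.14, adjusted p = 0.156). SLC38A9 had 7.43, 7.04 and 7.35 FPKM in naive H9 libraries, against 10.5, 11.5 and 10.6 FPKM in primed H9 libraries. SLC38A9 had 9.53, 6.60 and 7.76 FPKM in libraries labelled naive RUES-2, against 9.86, 14.0 and 10.6 FPKM in primed RUES-2 libraries. It fell by 0.52 ± 0.14 in H9 (adjusted p = 0.0115) and by 0.48 ± 0.14 with the RUES-2 label (adjusted p = 0.0157). The highest library labelled naive RUES-2 was close to the lowest primed one, and that call was lost with the 6 RUES-2 libraries alone (adjusted p = 0.0656), without naive RUES-2 replicate 2 (adjusted p = 0.0608) and without primed RUES-2 replicate 2 (adjusted p = 0.0507).

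SLC36A4, a high-affinity carrier of proline and tryptophan, stayed between 6.48 and 8.95 FPKM and was called in neither comparison (0.06 ± 0.10, adjusted p = 0.663 in H9, and -0.24 ± 0.10, adjusted p = 0.0695 with the RUES-2 label). SLC36A2, a renal carrier of glycine and proline, ran from 0.738 to 1.25 FPKM and was not called. SLC36A3, a relative described in testis, was at most 0.0473 FPKM in any library.

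Of the remaining SLC38 genes, SLC38A10 was the most abundant. Little is established on its substrates. It had 19.3, 17.6 and 18.5 FPKM in naive H9 libraries, against 16.6, 14.1 and 11.9 FPKM in primed H9 libraries. SLC38A10 had 18.1, 17.9 and 20.3 FPKM in libraries labelled naive RUES-2, against 11.3, 11.0 and 11.8 FPKM in primed RUES-2 libraries. It rose by 0.37 ± 0.10 in H9 (adjusted p = 0.0151) and by 0.67 ± 0.10 with the RUES-2 label (adjusted p = 0.000491), and states did not overlap. The H9 call was lost with the H9 libraries alone (adjusted p = 0.0558) and without naive H9 replicate 1 (adjusted p = 0.0565). SLC38A8, whose loss causes foveal hypoplasia, averaged 0.944 ± 0.463 FPKM in naive H9 and 0.0108 ± 0.0187 FPKM in primed H9, and 1.51 ± 0.309 FPKM with the naive RUES-2 label and 0.101 ± 0.0947 FPKM in primed RUES-2 (SD, n = 3 each). It rose by 0.91 ± 0.17 in H9 (adjusted p = 0.00175) and by 1.18 ± 0.17 with the RUES-2 label (adjusted p = 0.000334). SLC38A8 reached 1 FPKM in naive libraries alone and passed the filter through them. SLC38A6 ran from 2.28 to 3.56 FPKM and was not called, and SLC38A11 was at most 0.0925 FPKM in any library.

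A total of 5 of the 30 transporters changed differently between states with the 2 labels, beside 5.7% of all genes tested. For 3 of them (SLC38A5, SLC43A1 and SLC43A2) the difference, RUES-2 minus H9, was positive, beside 3.77% of all genes, and for SLC7A11 and SLC43A3 it was negative, beside 1.93%. These values rest on the libraries labelled naive RUES-2, so line and label cannot be told apart here. SLC38A5, a system N carrier that moves glutamine, serine and glycine with sodium against protons, showed the widest gap. It lies at chrX:48316927-48328644 (hg19). SLC38A5 had 0.581, 0.805 and 0.661 FPKM in naive H9 libraries, against 14.5, 17.1 and 10.4 FPKM in primed H9 libraries. SLC38A5 had 13.3, 28.5 and 13.5 FPKM in libraries labelled naive RUES-2, against 12.2, 12 and 18.2 FPKM in primed RUES-2 libraries. It fell by 3.14 ± 0.28 in H9 (adjusted p = 1.7e-05), and the groups overlapped with the RUES-2 label (0.30 ± 0.28, adjusted p = 0.406, and -0.04 without naive RUES-2 replicate 2). The difference was 3.43 ± 0.39 (adjusted p = 0.00189). The naive H9 libraries stood apart from the other 9. The system N relative SLC38A3 did not pass the filter, at 0.0915 to 0.361 FPKM in naive libraries, 0.247 to 0.254 FPKM in primed H9 and 0.577 to 1.25 FPKM in primed RUES-2. Without a filter limma gave it a change of 0.006 in H9, not called, and -0.71 with the RUES-2 label (adjusted p = 0.000979). The difference between the labels was then also called (-0.71, adjusted p = 0.0358), as was primed RUES-2 against primed H9 (0.56, adjusted p = 0.0438).

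The SLC43 genes followed 3 patterns. SLC43A1 and SLC43A2 let large neutral amino acids pass by facilitated diffusion, and SLC43A3 is a carrier of purine nucleobases in spite of its family. SLC43A1 had 1.19, 1.64 and 1.58 FPKM in naive H9 libraries, against 8.71, 6.47 and 13.4 FPKM in primed H9 libraries. SLC43A1 had 7.51, 10.5 and 6.04 FPKM in libraries labelled naive RUES-2, against 11.0, 11.1 and 11.5 FPKM in primed RUES-2 libraries. It fell by 2.04 ± 0.23 in H9 (adjusted p = 7.04e-05) and the change with the RUES-2 label was -0.47 ± 0.23 (adjusted p = 0.116). The difference was 1.57 ± 0.32 (adjusted p = 0.0202), and was not called without naive H9 replicate 1 (adjusted p = 0.0588), without naive RUES-2 replicate 2 (adjusted p = 0.051) or without primed RUES-2 replicate 1 (adjusted p = 0.0537). States did not overlap with either label.

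SLC43A2 had 5.64, 7.19 and 4.84 FPKM in naive H9 libraries, against 6.58, 7.71 and 7.44 FPKM in primed H9 libraries. SLC43A2 had 14.9, 14.2 and 15.4 FPKM in libraries labelled naive RUES-2, against 5.91, 5.77 and 6.43 FPKM in primed RUES-2 libraries. It rose by 1.17 ± 0.12 with the RUES-2 label (adjusted p = 3.29e-05) and the groups overlapped in H9 (-0.27 ± 0.12, adjusted p = 0.081). The H9 value was called without naive H9 replicate 2 (-0.40, adjusted p = 0.0114). The difference between the labels was 1.44 ± 0.16 (adjusted p = 0.00189). The 3 libraries labelled naive RUES-2 stood above the other 9.

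SLC43A3 had 1.64, 1.87 and 1.19 FPKM in naive H9 libraries, against 6.60, 10.1 and 6.07 FPKM in primed H9 libraries. SLC43A3 had 0.275, 0.292 and 0.254 FPKM in libraries labelled naive RUES-2, against 7.00, 8.24 and 9.52 FPKM in primed RUES-2 libraries. It fell by 1.72 ± 0.17 in H9 (adjusted p = 3.67e-05) and by 2.85 ± 0.17 with the RUES-2 label (adjusted p = 1.84e-06). The difference was -1.13 ± 0.25 (adjusted p = 0.0261), and it was not called without any 1 of 6 libraries (naive H9 replicates 1 and 2, primed H9 replicate 1, naive RUES-2 replicates 1 and 2, and primed RUES-2 replicate 3, adjusted p 0.0546 to 0.0733). For SLC7A11 the difference was -1.58 ± 0.20 (adjusted p = 0.00286), with a rise with both labels.

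**Figure D5:**
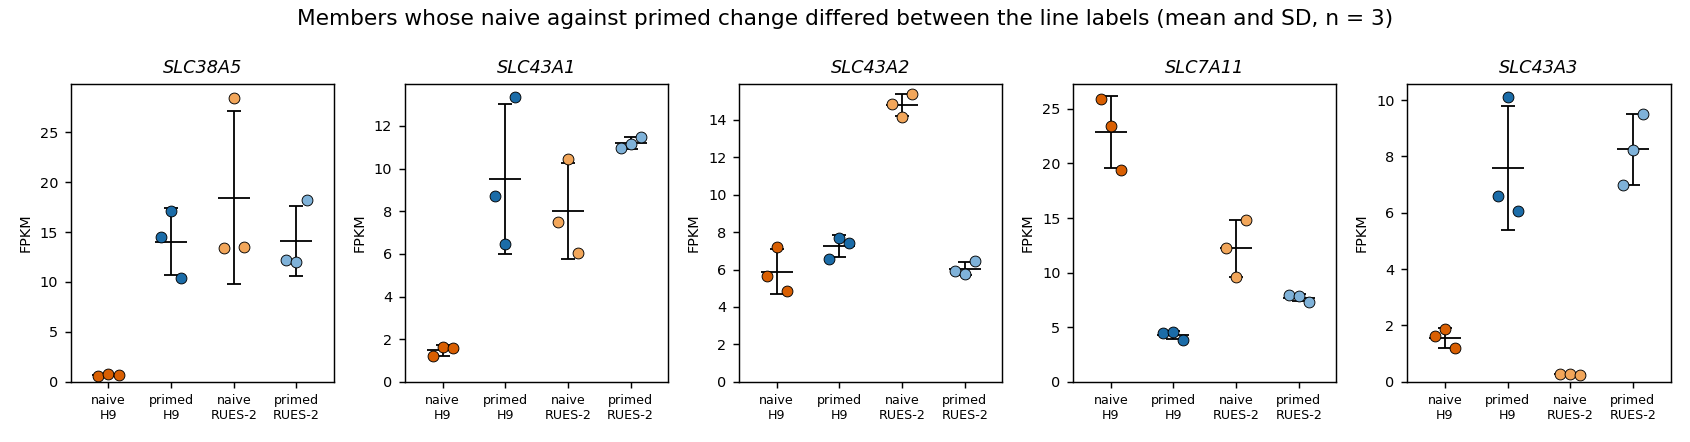
FPKM in each library (points) of the 5 transporters whose change between states differed between the line labels, with the mean and SD of 3 libraries, each panel on its own axis from 0. SLC38A5 and SLC43A1 are low in naive H9 alone, SLC43A2 is high with the naive RUES-2 label alone, and SLC7A11 and SLC43A3 move the same way in both by different amounts.

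Between the labels in the primed state, 3 of the 30 transporters were called, beside 1.82% of all genes tested, and all 3 were higher in RUES-2 (1.34% of all genes were higher and 0.471% lower). SLC7A3 was higher in primed RUES-2 than in primed H9 by 0.78 (adjusted p = 0.0412), SLC7A11 by 0.72 (adjusted p = 0.0387) and SLC1A4 by 0.68 (adjusted p = 0.0274). With the 6 primed libraries alone limma called 0 of the 30 (6 at an unadjusted p under 0.05, beside 8 in the fit of all 12). The count was also 0 without naive H9 replicate 1, primed H9 replicate 1, primed RUES-2 replicate 1 or primed RUES-2 replicate 3 (7 or 8 at an unadjusted p under 0.05). In the naive state, 10 transporters differed between the labels, beside 15.9% of all genes, with 7 higher (11.2% of all genes) and 3 lower (4.69%) in libraries labelled naive RUES-2 than in naive H9. SLC38A5 was higher by 3.45 (adjusted p = 7.34e-05), SLC43A1 by 1.84 (adjusted p = 0.000646), SLC7A2 by 1.22 (adjusted p = 0.000724), SLC43A2 by 1.21 (adjusted p = 0.000168), SLC1A4 by 1.07 (adjusted p = 0.00045), SLC7A3 by 0.56 (adjusted p = 0.0408) and SLC3A2 by 0.48 (adjusted p = 0.0343). The 3 lower genes were SLC43A3 at -1.0, SLC7A11 at -0.86 and SLC1A2 at -0.42 (adjusted p = 0.00408, 0.00328 and 0.0482). Without a filter limma did not call SLC7A3 between the labels in either state (adjusted p = 0.0515 primed and 0.0534 naive).

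Other genes that supply, sense or use amino acids were examined in lists. Of 34 other amino acid transporters 22 were tested, with 6 higher and 7 lower in naive H9, and 6 higher and 6 lower with the naive RUES-2 label. SLC6A15, a sodium-coupled carrier of branched-chain amino acids and proline, averaged 2.64 ± 0.120 FPKM in naive H9 and 7.85 ± 2.94 FPKM in primed H9, and 16.2 ± 5.73 FPKM with the naive RUES-2 label and 2.32 ± 0.754 FPKM in primed RUES-2 (SD, n = 3 each). It was lower in naive H9 and higher with the naive RUES-2 label, and the difference was called (3.58, adjusted p = 0.00108). SERINC2, a membrane protein named for serine incorporation, averaged 2.56 ± 0.255 FPKM in naive H9 and 11.7 ± 1.75 FPKM in primed H9, and fell by 1.82 with each label (adjusted p = 2.37e-06 and 2.62e-06). SLC6A8 averaged 21.9 ± 1.02 FPKM in naive H9 and 33.1 ± 3.21 FPKM in primed H9. With the RUES-2 label it averaged 21.6 ± 5.89 FPKM in naive and 42.0 ± 11.5 FPKM in primed libraries. It fell by 0.57 in H9 (adjusted p = 0.0472) and by 0.92 with the RUES-2 label (adjusted p = 0.00465).

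Genes of the response to amino acid deprivation, which ATF4 induces, were more often lower than higher in naive cells. Of 34 tested, 1 was higher and 17 lower in naive H9, and 3 were higher and 12 lower with the naive RUES-2 label, with medians of -0.27 and -0.02. DDIT4, an inhibitor of mTORC1, averaged 16.9 ± 3.12 FPKM in naive H9 and 76.7 ± 8.98 FPKM in primed H9, and 36.4 ± 3.85 FPKM with the naive RUES-2 label and 177 ± 98.1 FPKM in primed RUES-2 (SD, n = 3 each). It fell by 2.12 in H9 (adjusted p = 0.000787) and by 2.08 with the RUES-2 label (adjusted p = 0.000803). STC2 changed by -2.22 and -1.35 and VLDLR by -2.09 and -1.10 in H9 and with the RUES-2 label, and all 4 values were called. Asparagine synthetase, ASNS, averaged 29.3 ± 0.256 FPKM in naive H9 and 78.9 ± 0.851 FPKM in primed H9, and 89.5 ± 1.66 FPKM with the naive RUES-2 label and 127 ± 16.6 FPKM in primed RUES-2 (SD, n = 3 each). Its fall was larger in H9 (difference 0.91, adjusted p = 0.00298). Some transporters are known to be induced by this response. Of these, SLC38A2 fell, SLC7A1 fell in H9 at the threshold, and SLC3A2, SLC7A5 and SLC7A11 rose, as given above. Of the other members with the amino acid response element in a window, SLC1A5 and SLC38A1 fell and SLC1A3 rose with both labels. SLC1A4 rose with the RUES-2 label alone.

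Of 29 genes that sense amino acids upstream of mTORC1, 8 were higher and 5 lower in naive H9, and 9 higher and 3 lower with the naive RUES-2 label. EIF2AK4, the kinase that senses uncharged transfer RNA, averaged 12.3 ± 0.545 FPKM in naive H9 and 35.6 ± 7.30 FPKM in primed H9, and 15.0 ± 1.28 FPKM with the naive RUES-2 label and 30.7 ± 1.24 FPKM in primed RUES-2 (SD, n = 3 each). It fell by 1.45 in H9 (adjusted p = 1.19e-05) and fell by 0.99 with the RUES-2 label (adjusted p = 0.000125). WDR59, a subunit of the GATOR2 complex, changed by -0.56 in H9 and -0.47 with the RUES-2 label (adjusted p = 0.000244 and 0.000646). RRAGB, a Rag GTPase, rose by 0.62 in H9 (adjusted p = 0.00321), with a change of 0.26 for the RUES-2 label (adjusted p = 0.12).

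Of 18 genes of glutathione synthesis and cystine use, the pathway that SLC7A11 feeds, 7 were higher and 4 lower in naive H9, and 6 higher and 4 lower with the naive RUES-2 label. CD44, a surface protein known to stabilise SLC7A11, averaged 5.19 ± 1.30 FPKM in naive H9 and 2.23 ± 1.10 FPKM in primed H9, and 8.78 ± 0.775 FPKM with the naive RUES-2 label and 2.61 ± 1.07 FPKM in primed RUES-2 (SD, n = 3 each), and rose by 0.98 (adjusted p = 0.0171) and 1.48 (adjusted p = 0.00186). NQO1, a target of the oxidative stress factor NRF2, averaged 50.6 ± 0.928 FPKM in naive H9 and 19.4 ± 11.3 FPKM in primed H9 and rose there by 1.47 (adjusted p = 0.0064), with 0.91 for the RUES-2 label (adjusted p = 0.0516). GGT1, which breaks down extracellular glutathione, rose by 0.92 and 0.65 (adjusted p = 0.0093 and 0.0418).

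Of 15 tested genes of glutamine and glutamate use, 2 were higher and 7 lower in naive H9, and 5 higher and 6 lower with the naive RUES-2 label. The glutaminase GLS2 averaged 0.352 ± 0.0214 FPKM in naive H9 and 4.50 ± 2.59 FPKM in primed H9, and 0.693 ± 0.168 FPKM with the naive RUES-2 label and 5.77 ± 1.69 FPKM in primed RUES-2 (SD, n = 3 each). It fell by 1.92 in H9 (adjusted p = 0.000572) and fell by 1.97 with the RUES-2 label (adjusted p = 0.000432). GFPT2, which uses glutamine for hexosamine synthesis, fell by 1.17 in H9 (adjusted p = 0.00534) and fell by 1.16 with the RUES-2 label (adjusted p = 0.00519). Each of these lists holds called genes in both directions, and no list was tested as a set. Beside the list counts, 20.4% of all genes tested were higher and 23.9% lower in naive H9. With the naive RUES-2 label 23.1% were higher and 23.6% lower.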

How the data were processed

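Each library has a table of FPKM values with confidence bounds, deposited by the authors, per the file headers. TopHat2 2.1.1, bcl2fastq 2.17.1.14 and hg19 are named in the submitters' processing notes. The sources used here do not give the program or annotation behind the FPKM. The design text speaks of RPKM, the headers of FPKM. FPKM hold no counts, so no count test was run. Short RNAs took 35.2% to 50.2% of the FPKM sum (754195 to 986124), which scales all other values.

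Of 23615 symbols, 2 with a failed status were left out, and for 554 with several loci the locus of highest mean was kept (no transporter among them). The 14428 genes at 1 FPKM or more in 3 libraries or more entered limma (3.58.1, R 4.3.3), a two-sided test on log2(FPKM + 1) with 4 group means, a variance trend and Benjamini-Hochberg adjustment over all genes. The fit was tested on simulated data, and other filters, scalings, pseudocounts and libraries left out were tried. Transporters called in a state comparison that average 5 FPKM or more in some group, or called for the difference between labels, are given in full. From each list, up to 3 called genes with the largest mean change, averaging 5 FPKM or more in some group, are named, and ASNS is in 2 lists. The members and lists were chosen with earlier results of these data known. Coordinates are 1-based. Python 3.11.15, pandas 2.3.3 and matplotlib 3.10.9 made tables and figures.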

Additional observations from a re-analysis of the deposited data

Results flagged for a closer look

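A total of 5 transporters had a change between states that differed between the 2 line labels in limma's test of the difference (RUES-2 minus H9, log2(FPKM + 1)). The difference was 3.43 for SLC38A5, which fell in H9 and overlapped between states with the RUES-2 label. It was 1.57 for SLC43A1, which fell in H9. SLC43A2, with 1.44, rose with the RUES-2 label. SLC7A11 had -1.58 and rose in both, and SLC43A3 had -1.13 and fell in both. The 3 libraries labelled naive RUES-2 enter each of these values, and line and label cannot be told apart.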

How the results depend on the processing

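No called value changed its direction among the results and settings run. Of the changes that were not called, 5 changed sign in some setting, for example SLC38A5 with the RUES-2 label (0.30, and -0.04 without naive RUES-2 replicate 2) and SLC7A1 with the RUES-2 label (0.02, and -0.08 without the same library). Of the 3 other scalings, the one without short RNAs moved the median change of all genes most, between the naive labels from 0.0198 to -0.085. It called 8 transporters there instead of 10, with 5 instead of 7 higher and 3 lower as before. Upper quartile scaling and quantile normalization moved the medians less than that. The count of 3 transporters higher in primed RUES-2 than in primed H9, also the count in either direction, became 1 with a filter of 5 FPKM, 1 with a replicate block and 0 with the 6 primed libraries alone. Leaving out 1 library gave 20 to 24 called in H9 (8 to 10 higher, 11 to 14 lower), 19 to 22 with the RUES-2 label (11 to 12 higher, 8 to 10 lower), 3 to 7 for the difference (2 to 4 higher, 1 to 3 lower), 0 to 3 for primed RUES-2 against H9 (0 to 3 higher, 0 to 1 lower) and 7 to 11 for naive (5 to 8 higher, 2 to 3 lower). Same-numbered libraries had correlated deviations of -0.0537 to 0.136, so the numbers were not taken as pairs. With the replicate block 23 transporters were called in H9, 21 with the RUES-2 label, 5 for the difference and 9 between naive labels, and SLC7A1 lost its H9 call (adjusted p = 0.0523). SLC7A1 also lost it with short RNAs left out (adjusted p = 0.0585) and with no variance trend (adjusted p = 0.057), and SLC1A5 its RUES-2 call with no variance trend (adjusted p = 0.0567). SLC43A1 was called with the RUES-2 label without primed H9 replicate 3 (adjusted p = 0.0466) and without naive RUES-2 replicate 2 (adjusted p = 0.0463). The cause was not tested. Depth limits the members under 1 FPKM, for which FPKM give no counting floor.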
